A study of Rattus norvegicus with 11 samples.

Results

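The miRNAs miR-129 and miR-153 were followed in rat pancreatic islets at 2 ages. All features of the deposited table named for these miRNAs and counted on the sense strand were taken, which gave 6 of 950 rows: the 5p and 3p arms of miR-129-1, miR-129-2 and miR-153. The samples were 6 small RNA libraries from islets of 3-month-old male Sprague-Dawley rats (adult) and 5 from islets of 10-day-old Sprague-Dawley pups (P10), all described as controls, with no genetic change and no treatment given in the labels. Pup sex is not used here, and age therefore cannot be told apart from sex. The libraries are labelled as biological replicates, without saying whether each pools animals, so p-values measure the spread between these libraries.

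A miRNA gene is transcribed as a hairpin from which a 5p and a 3p arm are cut. An arm loaded into an Argonaute protein represses mRNAs that pair with its seed, bases 2 to 8. miR-129, made from a pair of loci, is abundant in neurons, where it is known to repress ion channel transcripts and to take part in homeostatic down-scaling of synapses. miR-153 is a neuronal and neuroendocrine miRNA known to target α-synuclein and proteins of vesicle release. In the RefSeq annotation of GRCr8 its hairpin lies within Ptprn2, the gene of phogrin, a membrane protein of insulin granules, and within a lncRNA, LOC120093227. The miR-129-1 hairpin lies within the lncRNA LOC120102250, and no annotated gene overlaps miR-129-2.

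In Rnor_5.0, the build of the files, miR-129-1 is on the plus strand of chromosome 4 (5p at 56049100 to 56049120, 3p at 56049143 to 56049161). miR-129-2 is on the minus strand of chromosome 3 (5p at 89838050 to 89838070, 3p at 89838007 to 89838028). miR-153 is on the plus strand of chromosome 6 (5p at 154028747 to 154028768, 3p at 154028784 to 154028805). The hairpins are shown because the results turn on how the miR-129 loci resemble each other. All 3 were matched by symbol in RefSeq's miRNA table (GRCr8; Mir129-1 and Mir153 plus strand, Mir129-2 minus strand), and capitals mark the annotated mature arms.
miR-129-1: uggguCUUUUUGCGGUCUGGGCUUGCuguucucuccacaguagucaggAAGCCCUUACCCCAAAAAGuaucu
miR-129-2: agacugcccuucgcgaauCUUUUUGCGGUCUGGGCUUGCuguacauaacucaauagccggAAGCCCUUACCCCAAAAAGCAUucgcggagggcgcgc
miR-153: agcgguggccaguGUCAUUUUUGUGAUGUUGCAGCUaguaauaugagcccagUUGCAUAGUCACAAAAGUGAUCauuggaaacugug

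The mature arms fall into 4 seeds, with the seed in capitals below. Both miR-129 5p arms are the same 21 bases, and the 3p arms of both loci share a seed.
miR-129-5p (both loci): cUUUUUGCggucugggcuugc
miR-129-1-3p: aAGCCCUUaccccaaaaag
miR-129-2-3p: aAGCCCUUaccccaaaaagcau
miR-153-3p: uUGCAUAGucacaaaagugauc
miR-153-5p: gUCAUUUUugugauguugcagcu
No other rat mature miRNA in that table has any of these seeds. Arms and seeds shown are those of the GRCr8 annotation. The counted miR-153-5p row spans 22 bases in Rnor_5.0 and starts nearer the 3p arm than the 23 bases annotated in GRCr8. Its seed may therefore differ from the one shown, which was not tested.

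The sequences limit what a locus count means. From the start of the 5p arm the hairpins of miR-129-1 and miR-129-2 are identical for 24 bases, which is longer than the annotated arm of 21 bases. From the start of the 3p arm they are identical for 19 bases, which is the whole annotated miR-129-1-3p, while miR-129-2-3p is annotated with 22 bases. Counted from 1 at the 5′ end of the 3p arm, the single difference within those 22 bases is U20C, miR-129-1 first, marked by the capital here.
miR-129-1 hairpin: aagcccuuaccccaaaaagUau
miR-129-2 hairpin: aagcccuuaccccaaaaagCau
A 3p read that begins at the annotated start and is shorter than 20 bases therefore carries no base that tells the loci apart. The same holds for a 5p read within the shared 24 bases. How the authors assigned such reads is not given in the sources used here.

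Library totals over 898 features ran from 1430412 to 2841550 counts in adults and from 1594961 to 4468745 at P10. Values are given as CPM, counts scaled to 1000000 with TMM factors. Ligation and PCR favour some sequences, so 1 miRNA is better compared between libraries than different miRNAs within one. The members held between 7 and 4799 counts per library, and all 6 passed the filter on low counts. The most abundant feature by mean CPM was miR-375-3p, an endocrine marker, which lay between 251238 and 325026 CPM in adults and between 113156 and 165984 CPM at P10. Each feature of miR-124, the defining neuronal miRNA, had 0 to 6 counts per library. Adult replicate 3 was the lowest adult library in both 3p arms of miR-129, and P10 replicate 1 the highest P10 library in both 5p arms; the edgeR test of each of these arms is also given without the library concerned.

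miR-153-3p was the leading member at both ages. In adults it averaged 1048 ± 148 CPM (SD, n = 6), followed by miR-129-1-5p at 301.2 ± 19.2, miR-129-1-3p at 217 ± 86.4, miR-129-2-3p at 123 ± 49.8, miR-129-2-5p at 72.6 ± 8.29 and miR-153-5p at 13.7 ± 1.81 CPM. At P10 the order was miR-153-3p at 666 ± 306 CPM (SD, n = 5), miR-129-1-5p at 227 ± 70.1, miR-129-2-3p at 133 ± 31.7, miR-129-1-3p at 65.5 ± 19.1, miR-129-2-5p at 39.0 ± 17.2 and miR-153-5p at 7.07 ± 2.68 CPM. The 3p arms of the miR-129 loci thus stood in opposite order at the 2 ages: miR-129-1-3p was the higher of the pair in 6 of 6 adult libraries, and miR-129-2-3p in 5 of 5 P10 libraries. The CPM ranges of this 3p pair overlapped in adults and not at P10. Other neighbours in this order also overlapped in range. They were miR-129-1-5p with miR-129-1-3p and miR-129-2-3p with miR-129-2-5p in adults. At P10 they were miR-153-3p with miR-129-1-5p and miR-129-1-3p with miR-129-2-5p.

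**Figure D1:**
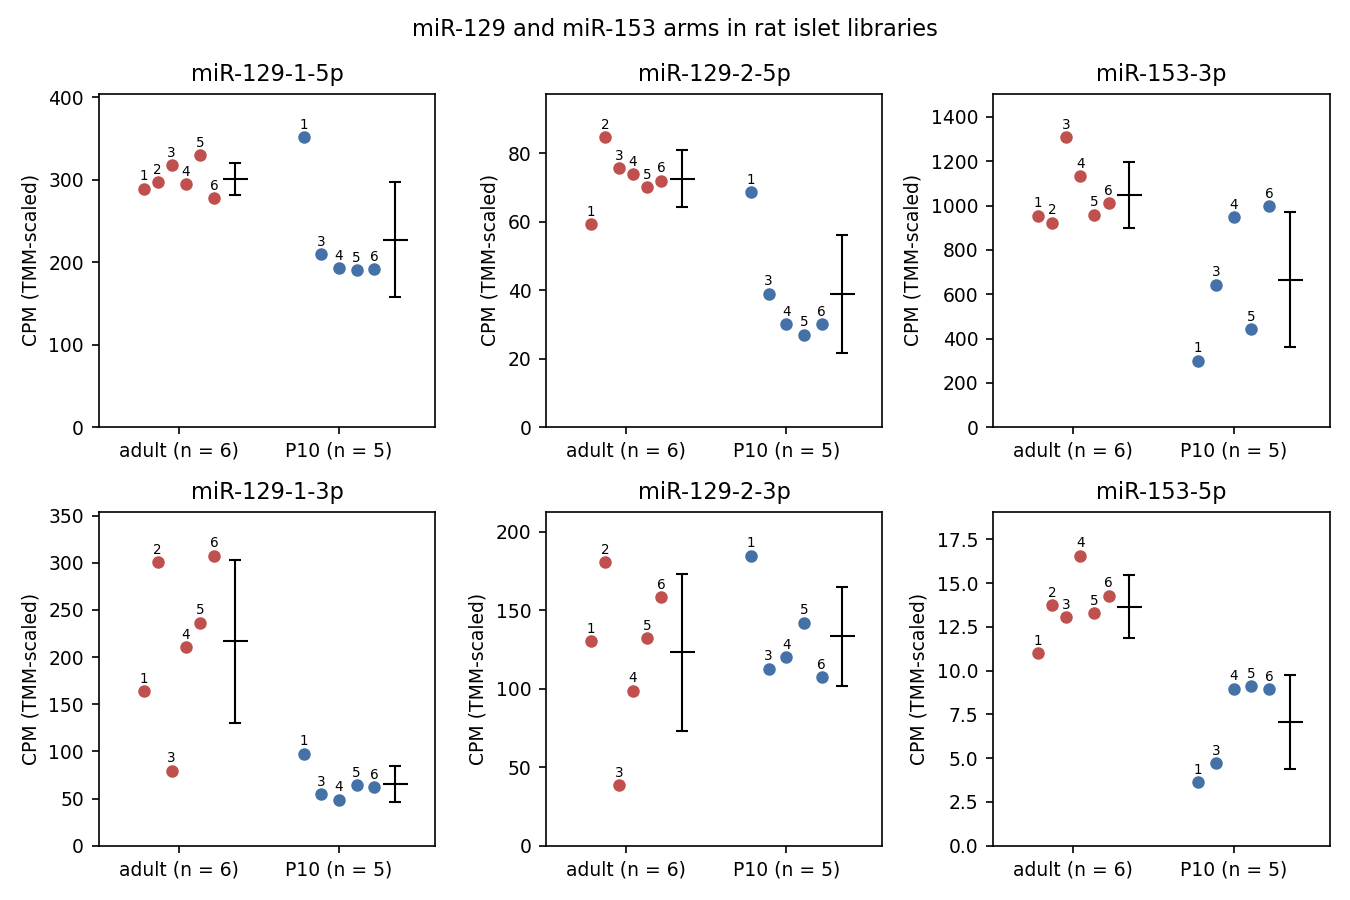
Each panel plots the CPM (TMM-scaled, axis from 0) of 1 arm in every library, adult left and P10 right, with replicate numbers beside the points and the mean ± SD in black. Adult replicate 3 is lowest for both 3p arms of miR-129 (79.7 and 38.5 CPM), and P10 replicate 1 is highest of its age for both 5p arms (352 and 68.7 CPM) and lowest for miR-153-3p (300.2 CPM).

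Between the ages, 3 of the 6 arms rose in adults and none fell past the threshold, an adjusted p of 0.05 in edgeR's quasi-likelihood test. Those that rose were miR-129-1-3p, miR-129-2-5p and miR-153-5p. Of all 457 features tested, 21.2% rose and 29.5% fell, and 50.8% passed in either direction. The median log2 change was 0.78 over the 6 arms and -0.11 over all tested features. Fold changes depend on the TMM factors. The log2 changes of the features shifted by a median of -0.27 when library totals were used alone, and of 0.16 with upper-quartile scaling. With library totals alone 1 of the 3 calls remained, that of miR-129-1-3p (log2 change 1.46, edgeR adjusted p = 0.00259). In these bulk islet samples, a larger number of cells of a type and more RNA per cell cannot be told apart.

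**Figure D2:**
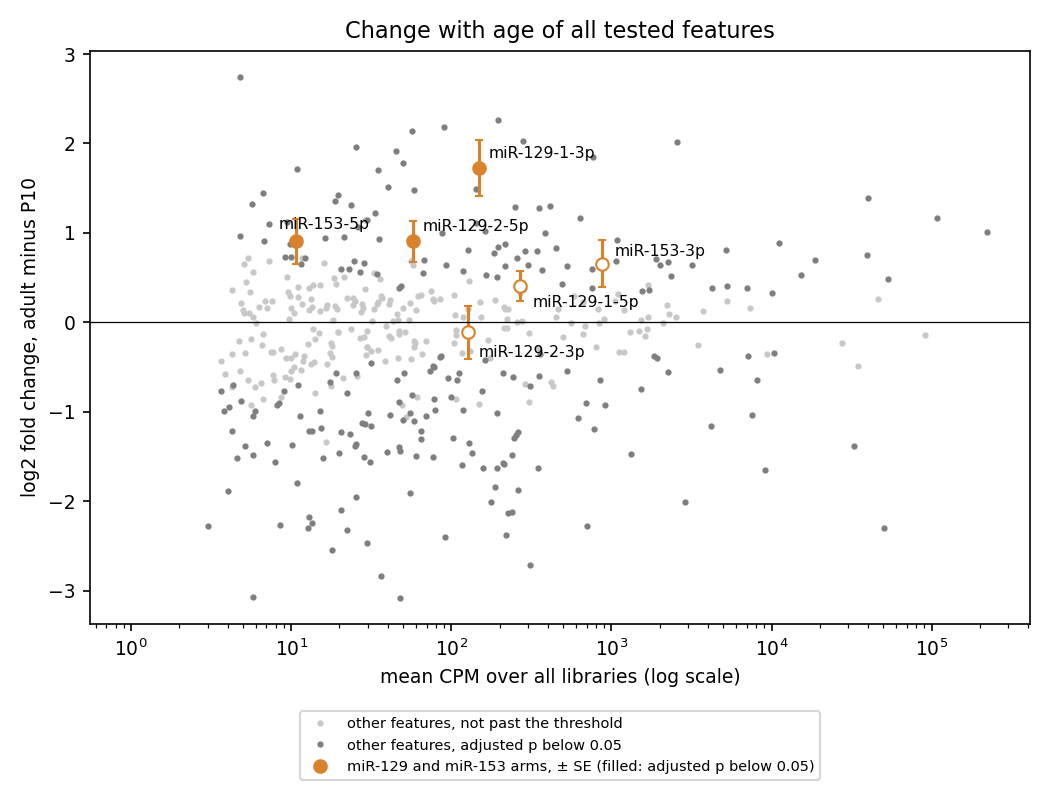
Each point is a tested feature, with its mean CPM over 11 libraries on a log axis and its log2 fold change (adult minus P10) on the vertical axis. The miR-129 and miR-153 arms are in orange with SE bars, filled where the adjusted p is below 0.05; miR-129-1-3p is the highest of them at 1.73 and miR-129-2-3p lies near 0 at -0.11.

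The 3p arm of miR-129-1 had the largest change of the 6. It was at 164, 301, 79.7, 211, 236 and 308 CPM in adult replicates 1 to 6, against 97.8, 54.4, 48.8, 64.4 and 62.3 CPM in P10 replicates 1, 3, 4, 5 and 6. All adult libraries but replicate 3 lay above every P10 library, and replicate 3 lay below P10 replicate 1. It rose 3.31-fold, a log2 change of 1.73 ± 0.31 (SE; edgeR adjusted p = 0.000501). Without adult replicate 3 the log2 change was 1.91 (edgeR adjusted p = 2.39e-05), and the adjusted p stayed between 2.39e-05 and 0.00239 when each library was left out in turn.

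The 3p arm of miR-129-2, whose first 19 bases are the whole of annotated miR-129-1-3p, did not pass the test. It was at 130.3, 181, 38.5, 98.8, 132 and 158 CPM in adult replicates 1 to 6, against 185, 113, 120.0, 142 and 107 CPM in P10 replicates 1, 3, 4, 5 and 6. The ages overlapped widely, with adult replicate 3 lowest of all 11 libraries. Its log2 change was -0.11 ± 0.30 (SE; edgeR adjusted p = 0.757), and its sign turned with upper-quartile scaling (0.062), without adult replicate 3 (0.086) and without P10 replicate 1 (0.034). It was -0.39 with library totals alone (edgeR adjusted p = 0.328).

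The 5p arm, the same sequence at both loci, is listed mostly under miR-129-1. The miR-129-1-5p row held 289, 297, 318, 295, 329.7 and 278 CPM in adult replicates 1 to 6, against 352, 209.7, 193, 191 and 192 CPM in P10 replicates 1, 3, 4, 5 and 6. The adult libraries were close together, with a coefficient of variation of 6.38% in adults and 30.8% at P10, where replicate 1 stood above every adult library and the other 4 below all of them. The log2 change was 0.41 ± 0.17 (SE), with an edgeR adjusted p of 0.0625, above the threshold. Without P10 replicate 1 it was 0.62 (edgeR adjusted p = 0.000689), and with library totals alone 0.12 (edgeR adjusted p = 0.639).

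The miR-129-2-5p row held 59.2, 84.7, 75.6, 73.9, 70.1 and 72.0 CPM in adult replicates 1 to 6, against 68.7, 39.0, 30.1, 27.1 and 30.1 CPM in P10 replicates 1, 3, 4, 5 and 6. P10 replicate 1 again lay within the adult range, and the other 4 pup libraries below it. It rose 1.87-fold, a log2 change of 0.90 ± 0.23 (SE; edgeR adjusted p = 0.00514; 0.0558 with library totals alone). Without P10 replicate 1 the log2 change was 1.21 (edgeR adjusted p = 5.17e-05). Leaving out each library in turn gave log2 changes from 0.82 to 1.21 and edgeR adjusted p-values from 5.17e-05 to 0.0163.

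Since reads of these loci may be shared, the counts of both loci were also summed per arm, a step added after seeing the data. Summed miR-129-5p averaged 374 ± 21.9 CPM in adults and 266 ± 87.2 CPM at P10 (SD, n = 6 and 5), a log2 change of 0.49 ± 0.18 (SE; edgeR adjusted p = 0.0324). Summed miR-129-3p averaged 339.8 ± 133 CPM in adults and 199 ± 49.7 CPM at P10 (SD, n = 6 and 5), a log2 change of 0.77 ± 0.29 (SE; edgeR adjusted p = 0.0416). Both passed narrowly, and not when library totals alone set the scale (edgeR adjusted p = 0.419 for the 5p sum and 0.202 for the 3p sum). When each library was left out in turn it ran from 0.000197 to 0.0783 for the 5p sum and from 0.00181 to 0.100 for the 3p sum, lowest without P10 replicate 1 for the 5p sum and without adult replicate 3 for the 3p sum.

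The 3p counts were divided differently between the loci at the 2 ages. The miR-129-2 row took 44.3%, 37.5%, 32.6%, 31.9%, 35.9% and 34.0% of the 3p counts in adult replicates 1 to 6, against 65.4%, 67.5%, 71.1%, 68.8% and 63.2% in P10 replicates 1, 3, 4, 5 and 6. The ages did not overlap, and the exact 95% binomial intervals, which cover counting error only, reached at most 49.6% in adults (replicate 1) and at least 59.8% at P10 (replicate 6). The means were 36.0% ± 4.54 in adults and 67.2% ± 3.03 at P10 (SD, n = 6 and 5; difference of -31.2 points, p = 0.00216 in a two-sided exact permutation test, the smallest p that the splits of 11 libraries allow). Adult replicate 3, low in both 3p arms, had a share of 32.6%, within the range of the other adult libraries. This share needs no scaling between libraries.

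The 5p counts were divided otherwise, as a comparison added after seeing the data shows. The miR-129-2 row took 17.0%, 22.2%, 19.2%, 20.0%, 17.5% and 20.6% of the 5p counts in adult replicates 1 to 6, against 16.3%, 15.7%, 13.5%, 12.4% and 13.6% in P10 replicates 1, 3, 4, 5 and 6. The share averaged 19.4% ± 1.94 in adults and 14.3% ± 1.64 at P10 (SD, n = 6 and 5), higher in adults by 5.12 points (two-sided exact permutation p = 0.00433; 2 shares compared). The miR-129-2 row held less of the 3p counts and more of the 5p counts in adults.

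**Figure D3:**
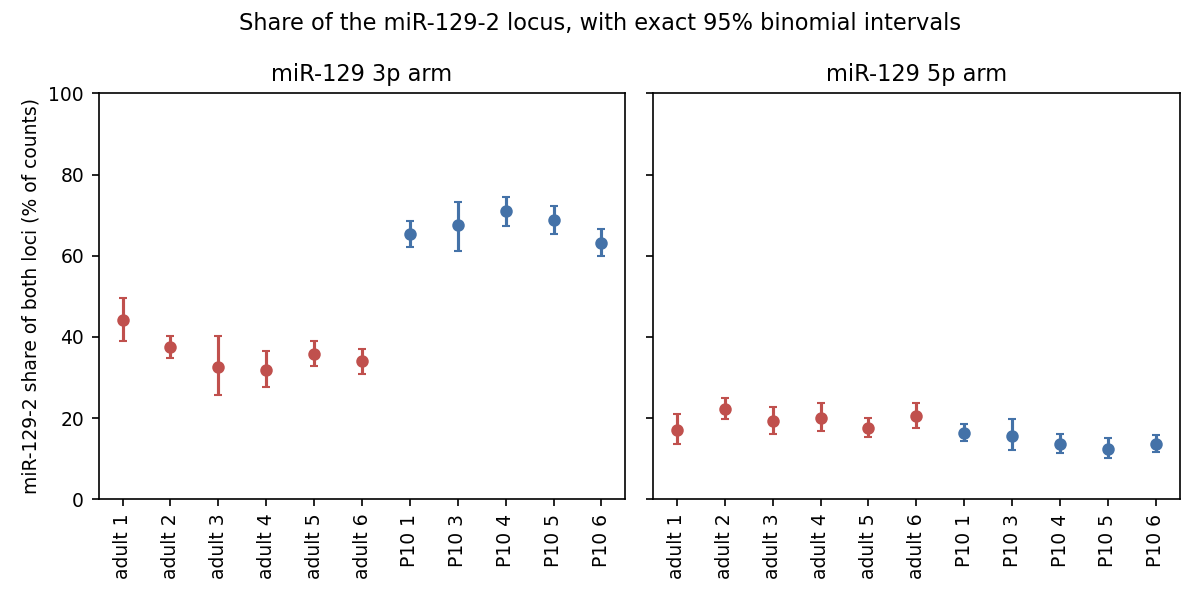
Each point is the percentage of miR-129 counts listed under miR-129-2 in 1 library (left, 3p arm; right, 5p arm), with its exact 95% binomial interval, adult in red and P10 in blue. For 3p the adult libraries lie between 31.9% and 44.3% and the P10 libraries between 63.2% and 71.1%; for 5p the adult libraries lie between 17.0% and 22.2% and the P10 libraries between 12.4% and 16.3%.

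The balance of the 5p row to the 3p row of each hairpin was compared next. For the miR-129 loci these ratios depend on how shared reads were assigned, so they may not be those of the hairpins themselves. At miR-129-1 the 5p counts were 1.76, 0.989, 3.99, 1.40, 1.39 and 0.902 times the 3p counts in adult replicates 1 to 6, against 3.60, 3.85, 3.95, 2.96 and 3.08 times in P10 replicates 1, 3, 4, 5 and 6. At miR-129-2 they were 0.455, 0.469, 1.96, 0.748, 0.529 and 0.455 times the 3p counts in adults, against 0.371, 0.345, 0.251, 0.190 and 0.281 times at P10. Leaving adult replicate 3 aside, the miR-129-1 ratio was lower in every adult library than in any P10 library, and the miR-129-2 ratio was higher in all 6 adult libraries.

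On the log2 scale, limma gave a difference (adult minus P10) of -1.18 ± 0.32 (SE; adjusted p = 0.0139) for miR-129-1. For miR-129-2 it was 1.20 ± 0.35 (SE; limma adjusted p = 0.0209). Of the 127 hairpins with both arms tested, 26.8% passed. With both loci summed, the miR-129 ratio differed by -0.14 ± 0.32 (SE; limma adjusted p = 0.819), with adult replicate 3 at 1.72 and the other 10 libraries between -0.41 and 0.57 on the log2 scale. The arm ratios of the separate loci moved in opposite directions, and that of their sum did not pass. These arm ratios regroup the same counts as the locus shares, so they are not a separate result. Without adult replicate 3 the difference was -1.46 for miR-129-1 (limma adjusted p = 0.000198) and 0.89 for miR-129-2 (limma adjusted p = 0.0105). For the sum it was then -0.43 ± 0.20 (SE; limma adjusted p = 0.120), an alternative added after seeing the data. Leaving out each library in turn, the limma adjusted p reached at most 0.0364 for miR-129-1 and 0.0495 for miR-129-2.

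**Figure D4:**
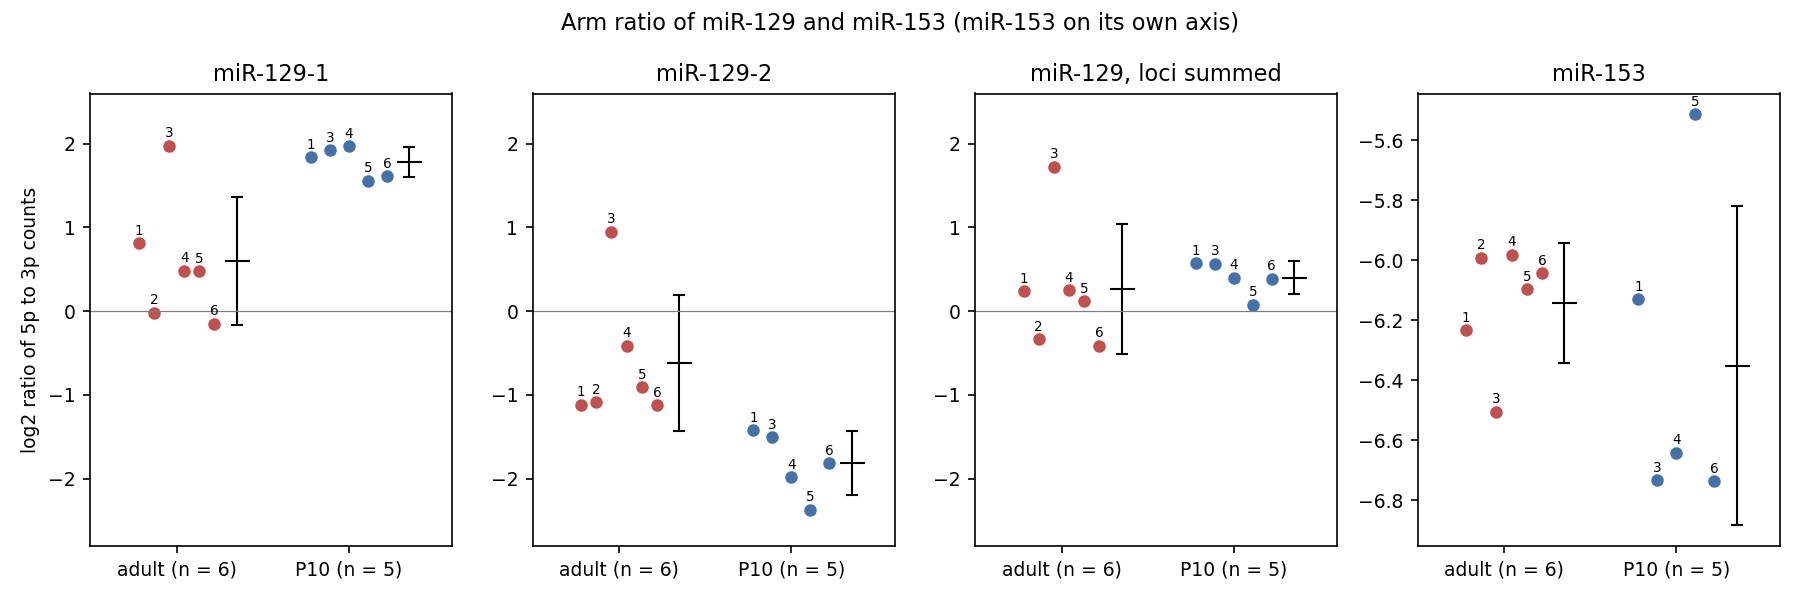
Each point is the log2 ratio of 5p to 3p counts in 1 library, adult left and P10 right, with replicate numbers and mean ± SD, for miR-129-1, miR-129-2, both loci summed and miR-153 (own axis). The adult means lie at 0.60 against 1.78 at P10 for miR-129-1, at -0.62 against -1.82 for miR-129-2, and at 0.26 against 0.40 for the sum.

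miR-153-3p, the dominant arm of its hairpin, was at 954, 922, 1309, 1133, 959 and 1009 CPM in adult replicates 1 to 6, against 300.2, 642, 947, 442 and 997 CPM in P10 replicates 1, 3, 4, 5 and 6. The pup libraries were spread widely: replicates 4 and 6 lay within the adult range, and replicates 1, 3 and 5 below it. The coefficient of variation was 14.1% in adults and 45.9% at P10. The log2 change was 0.65 ± 0.26 (SE), with an edgeR adjusted p of 0.0524, just above the threshold. It passed with DESeq2 (0.75, adjusted p = 0.0157), limma-voom (0.77, adjusted p = 0.0338) and upper-quartile scaling (0.79, edgeR adjusted p = 0.0308), and did not with library totals alone (0.41, edgeR adjusted p = 0.181).

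The less abundant arm miR-153-5p rested on 13 to 36 counts per adult library and 7 to 43 per P10 library. It was at 11.003, 13.7, 13.1, 16.6, 13.3 and 14.3 CPM in adult replicates 1 to 6, against 3.63, 4.70, 8.97, 9.12 and 8.94 CPM in P10 replicates 1, 3, 4, 5 and 6. It was the 1 of the 6 arms whose ages did not overlap, as was the case for 30.0% of all tested features. It rose 1.87-fold (log2 change 0.90 ± 0.25, SE; edgeR adjusted p = 0.00895; 0.0566 when scaled by library totals). The 5p to 3p ratio of miR-153 lay between 0.00997 and 0.0149 in adults and between 0.00732 and 0.0206 at P10, and did not pass the test (log2 difference 0.21 ± 0.23, SE; limma adjusted p = 0.584).

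Because miR-375-3p, which restrains insulin secretion, marks endocrine cells, each arm was also set against it within each library, which needs no scaling factor. Relative to miR-375-3p, 2 of the 6 arms were lower in adults and none was higher at an exact p below 0.05. Among the 456 other tested features, 79.4% were lower and 3.07% higher by that rule, with a median log2 change of -1.11. miR-129-2-3p had a mean log2 ratio of -11.3 ± 0.776 in adults and -10.1 ± 0.356 at P10 (SD, n = 6 and 5), 2.36-fold lower in adults (two-sided exact permutation p = 0.00866, adjusted over all 456 features 0.0133). Without adult replicate 3 its log2 difference was -0.97, against -1.24 with all libraries (exact permutation p = 0.0159). miR-129-1-5p was 1.48-fold lower (two-sided exact permutation p = 0.0108, adjusted 0.0160), a log2 difference of -0.57 that was -0.40 without P10 replicate 1 (exact permutation p = 0.0333).

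The other 4 arms did not pass this comparison. miR-129-1-3p had a log2 difference of 0.62 (two-sided exact permutation p = 0.126), which was 0.85 without adult replicate 3 (exact permutation p = 0.0238). miR-153-3p had a log2 difference of -0.23 (exact permutation p = 0.494), miR-129-2-5p of -0.040 (exact permutation p = 0.900; 0.19 without P10 replicate 1, exact permutation p = 0.438) and miR-153-5p of -0.024 (exact permutation p = 0.913). The last 2 were near 0 and changed sign when some single libraries were left out.

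**Figure D5:**
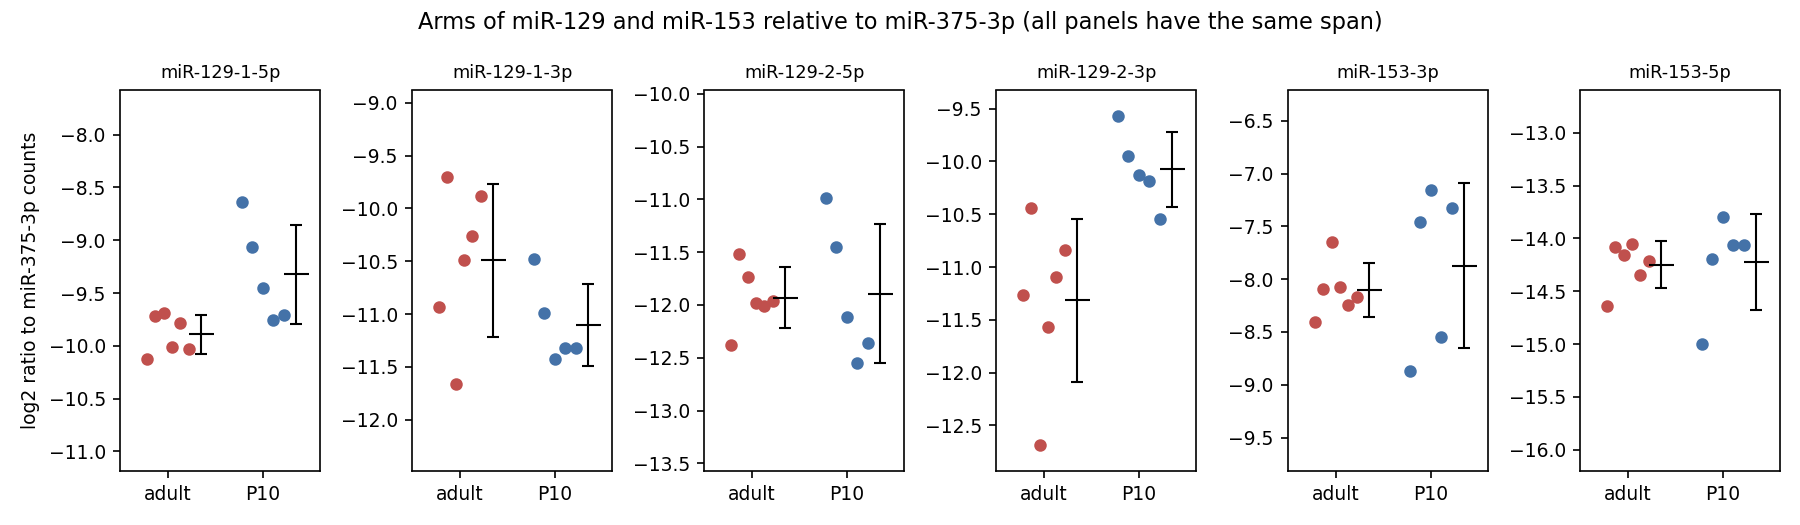
Each panel plots the log2 ratio of 1 arm's counts to miR-375-3p counts in every library, adult left and P10 right, with mean ± SD in black; all panels have the same span. The adult mean lies at -11.3 against -10.1 at P10 for miR-129-2-3p, and at -9.89 against -9.32 for miR-129-1-5p.

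Other islet and neuronal miRNAs, listed without miR-129 and miR-153, were read from the same fit. Of 50 listed features, 29 passed the filter on low counts; of these 14 rose, 5 fell and 10 did not pass, with a median log2 change of 0.50, where 21.2% of all tested features rose and 29.5% fell. With library totals alone 11 rose and 5 fell. The most abundant were miR-375-3p (2.01-fold higher, edgeR adjusted p = 8.67e-06), miR-183-5p (1.30-fold lower, edgeR adjusted p = 0.0191) and miR-204-5p, an islet miRNA known to target Mafa, which encodes a transcription factor of the insulin gene (1.43-fold higher, edgeR adjusted p = 0.0245). The smallest p-value on the list was that of the activity-regulated miR-212-3p (4.78-fold higher, edgeR adjusted p = 1.54e-07), followed by those of miR-375-3p and of miR-383-5p (3.77-fold higher, edgeR adjusted p = 1.54e-05). miR-129-1-3p, at 3.31-fold, lay between miR-375-3p and miR-383-5p in size of change.

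Markers of other cell types were counted in the same fit, beside the 21.2% of all tested features that rose and the 29.5% that fell. Of 6 tested mesenchymal features 4 fell and none rose (median log2 change -1.11), with summed levels of 17172 to 58287 CPM in adults and 33246 to 61126 CPM at P10. These sums were mostly miR-143-3p, which did not pass (means of 29198.5 CPM in adults and 41012 CPM at P10, edgeR adjusted p = 0.174). Of 3 tested acinar features 2 rose (median 1.36; sums of 28.6 to 127 CPM in adults and 22.2 to 37.7 at P10). Of 4 leukocyte features 1 fell (median -0.53; sums of 248.9 to 832 CPM in adults and 681 to 1427 at P10). Neither of 2 erythroid features passed (median -0.11; sums of 14.5 to 63.7 CPM in adults and 24.2 to 72.3 at P10). Of 5 tested neuronal and glial features, which are also on the islet and neuronal list, none passed (median 0.30; sums of 126 to 199.5 CPM in adults and 144 to 175 at P10). No feature matched to these lists was at 0 in all 11 libraries. Some listed miRNAs had no matched feature and are not part of these counts. The endothelial list had none, so endothelial markers were not analysed here. The part of these cell types in the miR-129 and miR-153 values was not tested.

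The features most like each arm were found as the smallest root-mean-square difference between log2 CPM profiles over the 11 libraries, each profile centred on its own mean. miR-129-1-3p was closest to the 3p arms of the miR-664 loci, miR-664-1-3p (0.17 log2 units) and miR-664-2-3p (0.35), then miR-877-3p (0.41); the median over all features was 1.09. miR-664-1-3p shared the low value of adult replicate 3, with 57.6, 82.5, 34.4, 76.7, 85.9 and 103.6 CPM in adult replicates 1 to 6 and 16.1 to 28.1 CPM at P10. miR-129-2-3p was closest to miR-296-5p (0.31), which was also lowest in adult replicate 3 (4.81 CPM) and highest in P10 replicate 1 (45.6 CPM), then to miR-30c-1-5p (0.43) and ENSRNOT00000072268_-3p (0.44), a feature the files list by transcript ID.

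The 5p rows had other neighbours. miR-129-1-5p was about equally close to miR-7a-1-3p (0.190) and let-7i-3p (0.192), then to miR-183-3p (0.21). miR-129-2-5p was closest to miR-325-5p (0.21), then miR-1839-3p (0.30) and miR-185-5p (0.33). miR-153-3p was closest to miR-879-5p (0.25), which had 773.8 and 797 CPM in P10 replicates 4 and 6 and 417 to 526 CPM in the other 3 pup libraries. Its next neighbours were miR-32-5p (0.29) and the epithelial miR-141-3p (0.30). miR-153-5p was closest to miR-425-5p (0.17), then to the antisense feature miR-3548-5p (0.20) and miR-3068-3p (0.21).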

How the data were processed

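The deposited values are unnormalized read counts per arm and locus, with positions in Rnor_5.0 per the file headers. The submitters' processing notes give rn5, edgeR and DESeq, without roles. Per the labels' protocols, RNA was extracted with Trizol and libraries made with an Illumina TruSeq small RNA kit. Aligner, annotation and treatment of shared reads: not given in the sources used here. All 11 per-library tables held the same counts as the series table.

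Each name entered once, with its highest count over rows (898 features; each miR-129 and miR-153 arm has 1 row). In R 4.3.3, edgeR 4.0.16 (filterByExpr, TMM, robust quasi-likelihood fit) compared the ages, with Benjamini-Hochberg adjustment over all 457 tested features. Standard errors come from the quasi-likelihood statistic; 1 count was 0.208 to 0.846 CPM. Arm ratios (prior count 2) were tested with limma 3.58.1, and single values by exact permutation. Alternatives were other scalings, filters and prior counts, DESeq2 1.42.0, limma-voom, the replicate block and leaving out each library. Tested on simulated counts (445 features, adult minus P10), edgeR called 46% of 50 features changed 1.5-fold, 86% of 50 changed 2-fold and 7 of 257 unchanged.

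Named are all miR-129 and miR-153 arms, miR-375-3p, the 3 most similar features per arm, and 6 entries of the islet and neuronal list (3 by level, 3 by p). Members and lists were chosen with earlier results of these data known. Same-age libraries differed beyond sampling noise (chi-square over its degrees of freedom at least 11.7, features with 10 or more summed counts).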

Additional observations from a re-analysis of the deposited data

Results flagged for a closer look

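Values of 34 groups (each arm's CPM, arm ratios, ratios to miR-375-3p and locus shares, per age) were searched for a library far from the others, and 3 were found; chance gives about 1 group in 20. Adult replicate 3 stood apart in the log2 5p to 3p ratio of miR-129-2, at 0.95, with the nearest adult library at -0.41. In that library the acinar sum was 124 CPM and the leukocyte sum 832 CPM, the highest leukocyte sum among adults. The leukocyte sum there was mostly miR-142-5p (923 counts). The other tested leukocyte features, miR-150-5p, miR-155-5p and miR-223-3p, had 196, 65 and 22 counts. Acinar sums were also 127 CPM in adult replicate 6 and 111 CPM in adult replicate 1. Leukocyte sums were 764 CPM in adult replicate 2 and 750 CPM in adult replicate 1. P10 replicate 1 stood apart in miR-129-1-5p, at 352 CPM, with the nearest P10 library at 209.7 CPM. It also did so in miR-129-2-5p, at 68.7 CPM, with the nearest P10 library at 39.0 CPM. This library had the highest erythroid sum of all 11, 72.3 CPM. That sum was mostly miR-451-5p (209 counts), while the other tested erythroid feature, miR-144-5p, had 3 counts. The library's islet and neuronal sum, 153088 CPM, lay within the P10 range and was mostly miR-375-3p (140691 CPM). The part of these cell types was not tested.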

How the results depend on the processing

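The rise of miR-129-1-3p, both miR-129 arm ratios and both locus shares kept their direction and their side of the threshold under every alternative run for them. The arm ratios and the locus shares come from the same counts and are not independent. The log2 change of miR-129-1-5p passed with DESeq2 size factors (0.50), upper-quartile scaling (0.58), DESeq2 (0.50) and limma-voom (0.46), was 0.12 with library totals alone, and ran from 0.35 to 0.62 when each library was left out. That of miR-153-3p passed with DESeq2 size factors (0.75), upper-quartile scaling (0.79), TMM without the most abundant feature (0.66), DESeq2 (0.75), limma-voom (0.77) and the replicate block (0.82), and ran from 0.47 to 0.84 when each library was left out; it passed without P10 replicate 4 (0.81) and without P10 replicate 6 (0.84). That of miR-129-2-3p turned to 0.062 with upper-quartile scaling, was -0.39 with library totals alone and -0.35 with the replicate block, and ran from -0.26 to 0.086 when each library was left out. With library totals alone, miR-129-2-5p (0.62), miR-153-5p (0.64) and the summed miR-129-3p (0.50) and miR-129-5p (0.21) no longer passed. Without each library in turn the sums ran from 0.65 to 0.98 for 3p and from 0.43 to 0.72 for 5p. When each library was left out, log2 differences relative to miR-375-3p ran from 0.46 to 0.85 for miR-129-1-3p, from -0.20 to 0.19 for miR-129-2-5p, from -0.48 to -0.054 for miR-153-3p and from -0.22 to 0.083 for miR-153-5p, which was 0.010 with a prior count of 0.5. Relative to the most abundant miR-7a arm they were 0.33, -0.33, -0.52 and -0.31 for these 4 arms, and -1.53 for miR-129-2-3p and -0.85 for miR-129-1-5p. The summed miR-129 arm ratio ran from -0.43 to -0.00040 when each library was left out. Where the alternative itself does not show it, the cause was not tested.

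Same-numbered libraries showed no clear pairing: their deviations correlated between -0.21 and 0.20, and 1 of 5 adult libraries correlated best with its own number. With 5 shared numbers, such a check cannot exclude that the numbers pair the libraries. With the replicate block 205 features passed, against 232 without it. With library totals alone 22.4% of calls were higher in adults, and 55.2% with upper-quartile scaling, against 41.8%. For miR-153-5p, at 7 to 43 counts, depth limits the precision.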
